A study of Mus musculus with 6 samples.

Results

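The genes described here are chromatin modifiers and remodellers: the Kmt, Setd and Ezh methyltransferases, the Kdm demethylases, the Hdac deacetylases, the Ncor co-repressors, the Brd readers, and the Smarc, Arid, Chd and Asxl families. They were chosen by the start of the gene symbol, with the metabolic gene Chdh left out, among genes with any exonic, splice or UTR annotation in a deposited variant list. The choice used no measured value beyond this annotation, and it gave 68 genes of 11429 in all lists together. A site in an all-variant list brought in 56 of the 68, and a somatic list alone brought in the other 12. Noncoding exons were the only annotated place of a site in 3 of the 56, and the only site of Kdm2b, from a somatic list, was in a noncoding exon too. These genes count in every total below.

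Whole bone marrow and ear of 3 C57BL/6 mice, 6 samples in all, had been sequenced after exome capture, with the ear as the germline comparison of each animal. Every animal carried the P95H change of the splicing factor gene Srsf2 and had been given tamoxifen, which activates the Cre recombinase that switches the change on. Animals 54 and 108 were male and animal 136 was female, and each was sampled when moribund, 50 to 60 weeks after tamoxifen. The sample labels give the genotype of all 3 as R26CreERT2 Srsf2 P95H, whereas the design text gives 1 of the 3 the blood-directed driver hScl-CreERT with R26eYFP, without saying which. R26CreERT2 is expressed in most tissues, so that ear can carry the recombined allele as well, and no animal without the Srsf2 change was part of the comparison. Each group is 3 samples, 1 from each animal.

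DNA in the nucleus is wound on histones, and enzymes write, erase and read marks on the histone tails: methyltransferases and demethylases set lysine methylation, and deacetylases remove acetyl groups. Remodellers such as SWI/SNF use ATP to move or evict nucleosomes. Genes of these kinds, ASXL1 and EZH2 among them, are recurrently mutated in human myeloid neoplasms, and KMT2A is rearranged in human leukaemia. In these lists the Asxl family was represented by Asxl3, and Ezh2 had a single site, in a noncoding exon and in the ear of animal 136.

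The all-variant lists held 43259, 79759 and 26602 sites in marrow of animals 54, 108 and 136, and 67945, 67274 and 24915 in ear. The median number of reads at exonic sites ran from 38 to 66 in marrow and from 31 to 71 in ear. At the engineered Srsf2 codon the variant made up 47.9%, 19.3% and 49.1% of reads in marrow of animals 54, 108 and 136, and 42.0%, 40.3% and 62.2% in ear. All 6 samples thus carried the allele their labels name, and marrow of animal 108 held the lowest fraction. Coordinates below are positions in GRCm38, and 322 of 328 member sites (98.2%) lay inside the RefSeq span of their gene in that build.

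Several of the in-frame insertions and deletions in these genes lay in runs of repeated triplets, as the Hdac5, Kmt2e and Smarcc2 alleles below show. The Hdac5 allele was called in both tissues of animal 108, whereas those of Kmt2e and Smarcc2 were not shared by both tissues of any animal. Those of Smarca2 and Setd1a, found in ear alone, are printed because they are described further on. The reference allele comes first and the variant after it, on the forward strand as the deposited lists write them. Capitals mark the bases that are added in the variant or missing from it, placed as far left as the repeat allows.
Hdac5 reference, chromosome 11, 102202146 to 102202172: ttcctcctcctcctcctcctcctcctc
Hdac5 variant, 1 glutamate more (Glu597dup): tTCCtcctcctcctcctcctcctcctcctc
Kmt2e reference, chromosome 5, 23499480 to 23499503: gCCGCCGCCGCCAccgccgccgcc
Kmt2e variant, 4 residues fewer (Thr1228_Ala1231del): gccgccgccgcc
Smarcc2 reference, chromosome 10, 128487362 to 128487381: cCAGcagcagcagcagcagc
Smarcc2 variant, 1 glutamine fewer (Gln961del): ccagcagcagcagcagc
Smarca2 reference, chromosome 19, 26631010 to 26631015: gcagca
Smarca2 variant, 2 glutamines more (Gln233_Gln234dup): gCAGCAAcagca
Setd1a reference, chromosome 7, 127797234 to 127797238: tggag
Setd1a variant, 1 glycine more (Gly1533dup): tGGAggag

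The first question was which changes in these genes the animals carried in both tissues. A site counted as shared when the marrow and the ear list of 1 animal held the same position and alleles. Member genes had 63, 113 and 8 shared sites in animals 54, 108 and 136 (95% Poisson intervals 48.4 to 80.6, 93.1 to 136 and 3.45 to 15.8). Of 68 members, 24 (35.3%) had a shared site in at least 1 animal, against a background of 39.1% over all genes. A shared protein-altering site, meaning one that SnpEff gave a HIGH or MODERATE impact, was found in 12 members (17.6%), against 15.5% over all genes.

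The shared sites were bunched in a few genes, and mostly in 1 animal per gene. Shared sites were found in 1 animal alone in 20 members, in 2 animals in 4 members and in all 3 in none. Of the 177 distinct shared sites, 170 were found in 1 animal, 7 in 2 and 0 in 3, whereas 1124 of 22336 distinct shared sites over all genes were found in all 3. Chd8, a remodelling ATPase, had 34 shared sites in animal 108 and none in the other two animals. Hdac1, a class I deacetylase of several co-repressor complexes, had 20 in animal 54 and none elsewhere. Ncor1, a co-repressor that recruits Hdac3, was the only member with 5 or more shared sites in more than 1 animal: the same 6 sites were present in animals 108 and 136.

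**Figure D1:**
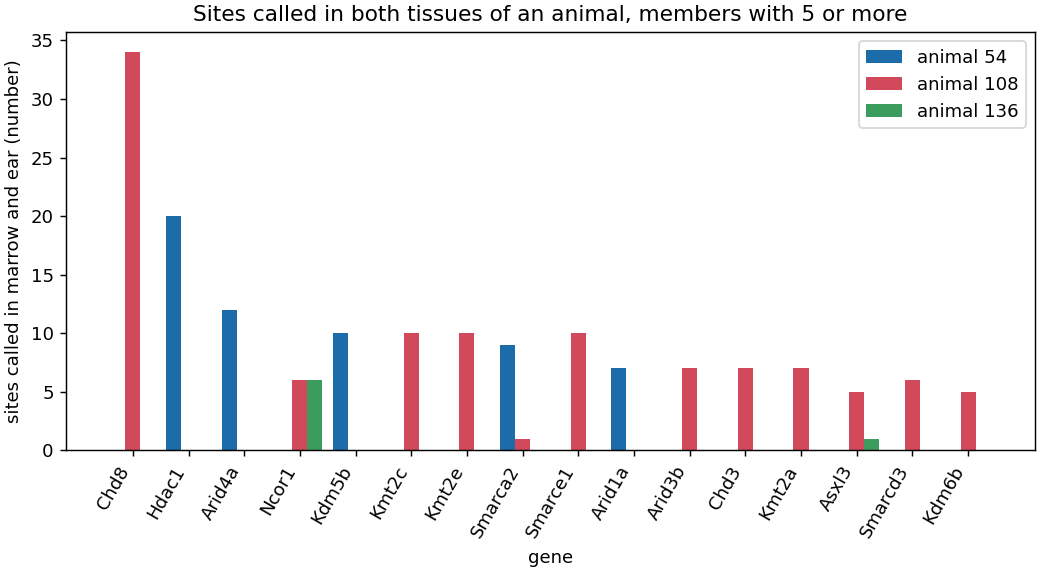
The number of sites called in both marrow and ear of an animal is plotted for the 16 members with 5 or more such sites over all animals, with 1 bar per animal. Each gene but Ncor1, Smarca2 and Asxl3 has sites in a single animal, and Chd8 in animal 108 has the tallest bar, at 34.

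Among the Kmt genes, Kmt2c and Kmt2e had 10 shared sites each and Kmt2a 7, all in animal 108. Kmt2a, the H3K4 methyltransferase of the MLL family, carried S2292L, with the variant at 97 of 169 reads (57.4%) in marrow and 86 of 174 (49.4%) in ear. It also carried L821P, at 11 of 33 reads (33.3%) in marrow and 19 of 34 (55.9%) in ear, and E806D, at 19 of 49 (38.8%) in marrow and 16 of 30 (53.3%) in ear. Both tissues held each of the 3 changes, and fractions ran from 33.3% to 57.4%. Kmt2c, which methylates H3K4 at enhancers, carried D2925N (50.6% of 178 reads in marrow, 48.0% of 171 in ear) and N175S (42.0% of 131 in marrow, 45.3% of 137 in ear). It also had Gln1781dup, at 8 of 20 reads in marrow and 2 of 9 in ear. Kmt2e, a SET domain protein also known as MLL5, carried M1116L, W1385R, T1442M and T1228A.

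T1442M of Kmt2e was the deepest of these, at 223 of 492 reads (45.3%) in marrow and 256 of 573 (44.7%) in ear of animal 108. T1228A lay inside the alanine-coding triplet run printed above for Kmt2e, and it stood lower, at 4 of 19 reads (21.1%) in marrow and 4 of 24 (16.7%) in ear. In the Setd family, Setd3, an actin histidine methyltransferase, had the only shared change of a splice site in the members. This change, c.1339-2A>C, stood at 6 of 32 reads (18.8%, 95% interval 7.21 to 36.4) in marrow and 10 of 50 (20%, 95% interval 10.03 to 33.7) in ear of animal 54. Neither interval reached 50%, so both tissues held it below the fraction of most shared sites. Setd1a, the H3K4 methyltransferase of the Set1 complex, had R651P in both tissues of animal 54, at 3 of 11 reads in marrow and 12 of 19 in ear. The same site was in the marrow lists of animals 108 (6 of 12 reads) and 136 (3 of 11), with all variant reads on the forward strand in both. The change is to proline. It lies among residues 649 to 658 of Setd1a, where the bunched proline sites of 1 tissue described further on were found. Ezh1, a Polycomb H3K27 methyltransferase, had 2 shared sites, both beside splice sites and both in animal 108.

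The genes that erase marks had shared sites without a change of residue, with 1 exception. Kdm5b, an H3K4 demethylase, had 10 in animal 54 and Kdm6b, an H3K27 demethylase, had 5 in animal 108. No shared site in either gene altered the protein, and none of the 20 in Hdac1 did. Hdac5, a class IIa deacetylase, had the in-frame Glu597dup shown above in animal 108, at 32 of 56 reads (57.1%) in marrow and 22 of 50 (44.0%) in ear.

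The remodellers and ARID proteins held the rest of the shared protein-altering sites. Arid1a, the SWI/SNF subunit that binds DNA, carried N1803S, Y1759S and A579S in animal 54. N1803S stood at 59 of 105 reads (56.2%) in marrow and 78 of 151 (51.7%) in ear. Arid4a, a retinoblastoma-binding protein of the Sin3 deacetylase complex, had 12 shared sites in animal 54, among them A732G, F786L, T1134S and S1138P. The fractions of these 4 changes ran from 30.8% to 63.2% in marrow and from 45.0% to 55.6% in ear. Arid3b, a DNA-binding ARID protein, carried Q147K in animal 108, at 163 of 394 reads (41.4%) in marrow and 163 of 352 (46.3%) in ear.

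Chd8 carried 2 changes of a residue among its 34 shared sites, N2020S at 28 of 57 reads (49.1%) in marrow and 22 of 42 (52.4%) in ear, and R788K at 101 of 212 (47.6%) in marrow and 96 of 204 (47.1%) in ear. Chd3, the ATPase of the NuRD complex, carried E1753D and W390R in animal 108. Chd1l, a remodeller that answers DNA damage, carried P562R in animal 54, at 71 of 146 reads (48.6%) in marrow and 127 of 230 (55.2%) in ear. Among the SWI/SNF subunits, Smarce1 had 10 shared sites and Smarcd3 had 6, in animal 108, and the ATPase gene Smarca2 had 9 in animal 54 and 1 in animal 108. No shared site of these 3 genes altered the protein.

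Over the members, 26 of the 177 distinct shared sites were protein-altering and 84 were synonymous, a ratio of 0.310. Over all genes the counts were 4827 and 7671, a ratio of 0.629. Genes of chromatin complexes outside these families, 41 of which were in the lists, had 6 and 24, a ratio of 0.250. The ratio was not tested, since sites in 1 gene and 1 animal share their source.

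Several members with shared sites were neighbours on a chromosome, and such neighbours had their sites in the same animal. Kmt2e, Smarcd3 and Kmt2c start within 1.2 and 0.68 Mb of each other on chromosome 5, and all 3 had their sites in animal 108. Chd3 and Kdm6b start 0.055 Mb apart on chromosome 11, and Smarce1, Ezh1 and Hdac5 follow one another there at 2 and 1 Mb. All 5 of these genes had their sites in animal 108. Hdac1 and Arid1a, 4.2 Mb apart on chromosome 4, had theirs in animal 54. Genes next to each other are thus not separate observations.

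The second question was whether a shared variant differed in fraction between marrow and ear of an animal. Fisher's exact test (two-sided) was run at each shared site with at least 10 reads in both tissues, and p-values were adjusted by Benjamini-Hochberg over all such sites of the animal. It tested 63, 109 and 6 member sites in animals 54, 108 and 136, and 0, 0 and 0 passed an adjusted p of 0.05. Of all 31835, 48977 and 11026 sites tested, which include sites outside exons, 0.0346%, 0.0327% and 0.0181% passed. Without adjustment, 9, 9 and 0 member sites were under 0.05 (14.3%, 8.26% and 0), against 8.41%, 7.43% and 6.22% of all sites. The members' shares were near these backgrounds in animal 108 and above the background in animal 54, where neighbouring sites of 1 gene count separately. Member sites are exonic, splice or UTR sites only, and a background of such sites alone was not computed.

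The lowest p of a member site was at Chd3 c.1234+6G>A, in the splice region of animal 108. It stood at 52 of 147 reads (35.4%) in marrow and 79 of 140 (56.4%) in ear, a difference of -21.1 percentage points (95% Newcombe interval -31.8 to -9.54). Fisher's exact test gave p = 0.000382 and an adjusted p of 0.152. At W390R, in the exon beside it, the fractions were 44.2% of 138 reads in marrow and 50.5% of 97 in ear. The second lowest p was at Smarce1 Q295Q in animal 108, at 66 of 160 reads (41.2%) in marrow and 88 of 148 (59.5%) in ear (Fisher's exact test, adjusted p = 0.280). Next came Arid1a A578A in animal 54, at 31 of 78 reads (39.7%) in marrow and 55 of 90 (61.1%) in ear (Fisher's exact test, adjusted p = 0.392). The base beside it, which gives Arid1a A579S, had 31 of 79 reads (39.2%) in marrow and 53 of 89 (59.6%) in ear. These 2 sites are next to each other and can lie on the same reads.

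**Figure D2:**
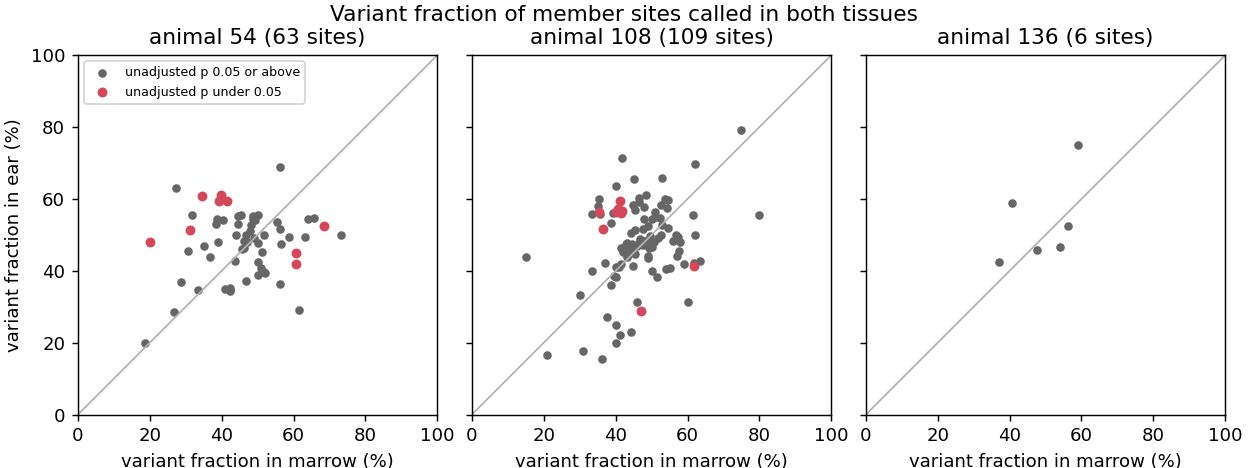
Each point is a member site called in both tissues of an animal, with the percent of variant reads in marrow on the horizontal axis and in ear on the vertical axis. Red points had an unadjusted p under 0.05 (9, 9 and 0 sites in animals 54, 108 and 136), the grey line marks equal fractions, and no point passed after adjustment.

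At sites where the ear fraction lay between 20% and 80%, the mean marrow minus ear difference of the members was -1.44, -1.33 and -4.39 percentage points in animals 54, 108 and 136 (63, 106 and 6 sites). The mean over animals was -2.39 ± 1.73 points (SD, n = 3), and that over all genes was -0.150 ± 0.351 (SD, n = 3). With at least 20 reads in both tissues the members' mean was -0.718 points. In animal 136 the value rests on the 6 Ncor1 sites alone. By gene the differences went both ways in the members with 5 or more sites: Kmt2a stood at -7.86 points (7 sites), Kdm5b at -7.76 (10 sites), Ncor1 in animal 108 at 5.86 (6 sites) and Smarca2 in animal 54 at 5.04 (9 sites). Hdac1 (1.88 points, 20 sites) and Chd8 (0.97 points, 33 sites), the genes with most sites, lay close to equal fractions.

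No member site was called in all 6 samples. The test stratified by animal (Cochran-Mantel-Haenszel) thus had 0 member sites among its 4444, exonic or not, of which 1 (0.0225%) passed. In the 4 samples of animals 108 and 136 it took in 8442 sites, 12 of which passed (0.142%). The 6 Ncor1 sites were among those tested, and 0 passed. Their mean fraction in animal 108 was 53.0% in marrow and 47.2% in ear. In animal 136, marrow averaged 49.1% and ear 53.5%. The lowest adjusted p among them was 0.855, at the synonymous c.2418T>C (Cochran-Mantel-Haenszel test). This site stood at 98 of 169 reads (58.0%) in marrow and 89 of 185 (48.1%) in ear of animal 108, and at 81 of 170 (47.6%) in marrow and 58 of 127 (45.7%) in ear of animal 136.

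The third set of sites was found in 1 tissue of an animal only. The marrow list alone held 22, 45 and 15 member sites in animals 54, 108 and 136, and the ear list alone held 57, 23 and 24. The log2 ratio of marrow-only to ear-only sites was -1.37, 0.97 and -0.68, a mean of -0.36 ± 1.20 (SD, n = 3), and over all genes the mean was -0.21 ± 0.87 (SD, n = 3). The direction differed between animals, and the spread over animals exceeded the mean. In each of the 3 animals, the tissue with more member sites of its own was also the one with more exonic sites in its list. These numbered 11147, 18179 and 5120 in marrow of animals 54, 108 and 136, and 13373, 16917 and 5252 in ear. These totals include the sites of 1 tissue themselves, so they are not a separate measure. By the whole list, animal 136 went the other way: marrow held 26602 sites and ear 24915. Median reads at exonic sites there were 38 in marrow and 31 in ear. The part of list length or depth in these counts was not tested.

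**Figure D3:**
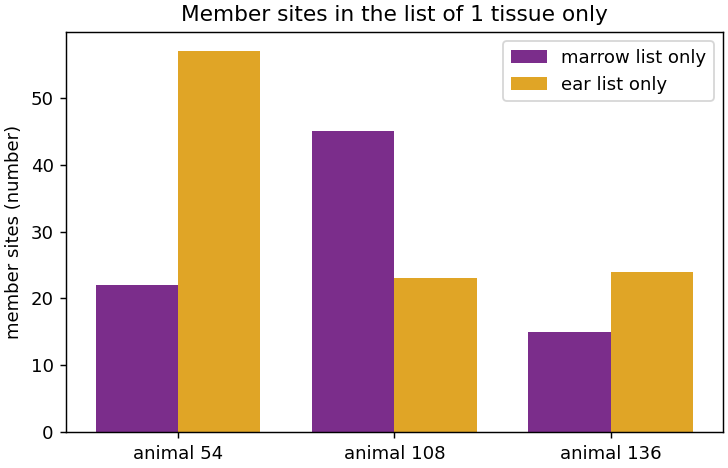
Bars give the number of member sites found in the marrow list only (purple, left) and in the ear list only (yellow, right) of each animal. Ear had more in animals 54 and 136 and marrow had more in animal 108.

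Sites found in 1 tissue rested on few reads. Their median depth was 14.5, 17 and 15 reads in marrow of animals 54, 108 and 136, and 16, 16 and 14.5 in ear, and the median variant fraction ran from 20% to 30%. Shared member sites had medians of 44.2% to 49.1%. All variant reads lay on 1 strand at 75.6% of marrow-only and 79.8% of ear-only member sites, against 21.2% of shared ones. Over all genes these shares were 70.8%, 73.2% and 18.7%, so the members followed the lists as a whole in this.

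Many of the coding sites of 1 tissue in these genes fell on proline codons. The residue after the change was proline, synonymous changes included, at 21 of 38 marrow-only coding substitutions (55.3%), 21 of 40 ear-only ones (52.5%) and 22 of 111 shared ones (19.8%). Over all genes the shares were 17.4%, 17.4% and 7.98%. The sites were bunched: Asxl3, a relative of the Polycomb-associated Asxl1, had such sites at 6 residues within 13, from 1975 to 1987. Kmt2b, an H3K4 methyltransferase, had 5 within 12 residues, Setd1a 5 within 10 and Chd3 4 within 6. Asxl3 P1980P was called in 4 of the 6 lists, at 5 of 12 and 10 of 23 reads in marrow of animals 108 and 136 and at 6 of 14 and 10 of 14 reads in ear of animals 54 and 108.

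Protein-altering sites of 1 tissue included some in splice sites. In ear, Brd2, a BET bromodomain protein, had c.331-2A>T in animal 54 (3 of 10 reads), and Setd5, a SET domain protein, had c.1245-1G>T in animal 108 (4 of 31). Kmt2e had c.769-2A>T in ear of animals 54 (7 of 39 reads) and 136 (4 of 20), at the end of a run of T. In animal 108 both tissues had insertions of T in this run (9 of 26 reads in marrow, 8 of 16 in ear), listed with alleles that differed between the tissues. Smarca2, whose triplets are printed above, had 4 protein-altering sites within its glutamine run in ear of animal 54 and none there in marrow.

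A pair of sites of 1 tissue did not share the low depth of the rest. Setd1a Gly1533dup, the added glycine shown above, stood at 120 of 229 reads (52.4%) in ear of animal 136, with 92 variant reads on the forward and 28 on the reverse strand. The marrow list of the animal held no site within 10 bases of it, and no other list held it. A deletion in a noncoding exon of Hdac1, n.270_271delCT, stood at 83 of 176 reads (47.2%) in marrow of animal 54, and the ear list held no site within 10 bases. The lists give no depth where nothing was called, so the reads in the other tissue at the position itself are unknown. Ear of animal 54 was well covered close to the Hdac1 deletion, which lies at 129516840. There the shared site n.258A>G, at 129516854, had 92 of 199 reads (46.2%) in marrow and 129 of 279 (46.2%) in ear. Over all genes, 21110 exonic sites had at least 100 reads and a fraction of 30% to 70%, and at 385 (1.82%) of these the other tissue had no call within 10 bases.

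The last comparison was that of the somatic callers, which set marrow against ear of the same animal. The deposited Strelka lists give a Phred-scaled quality and no read count. Strelka called 22, 6 and 26 exonic, splice or UTR sites in the members in animals 54, 108 and 136. Of these 14, 4 and 14 altered the protein (95% Poisson intervals 7.65 to 23.5, 1.09 to 10.2 and 7.65 to 23.5), and together they fell in 27 of 68 members (39.7%), against 20.6% over all genes. By animal the shares of members were 20.6%, 5.88% and 17.6%, against 9.78%, 5.36% and 7.25% of all genes. The members are long genes: their median coding length was 4383 bases in the 53 with one in the lists, against 1629 bases in all genes. Genes without a coding site in any list have no length here, and some genes are in the lists only through the calls counted, so no rate per base is given.

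Quality of the 32 protein-altering calls ran from 15 to 51, the median being 24, and 11 calls had 30 or more. The ratio of protein-altering to synonymous calls was 2 in the members (32 and 16) and 2.99 in all genes. A change of C to A, or of G to T on the other strand, made up 26 of 53 single base calls (49.1%) in the members and 40.1% in all genes. Among shared sites it made up 5.78% in the members and 8.73% in all genes.

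No member had a protein-altering Strelka call in all 3 animals, and 3 of 68 (4.41%) had one in 2 animals. The share of all genes with such calls in 2 or 3 animals was not computed, so these counts have no background. Of the 3, Setdb2 and Smarcc1 had no site in an all-variant list and are members through these calls alone. Setdb2, an H3K9 methyltransferase, had R148L in animal 54 (quality 35) and the stop R179* in animal 108 (quality 25), 92 bases apart in exon 7 of 15. Smarcc1, a scaffold subunit of SWI/SNF, had S563Y in animal 54 (quality 30) and P292T in animal 136 (quality 24). Kmt2a had a missense call in animals 54 and 108, with qualities of 19 and 29. None of these 6 calls was in the all-variant list of the marrow it came from.

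Some calls truncate the protein or change a splice site. Besides Setdb2 R179*, these included W308* of Kdm8, a JmjC domain protein, in animal 54 (quality 29). In animal 136, Chd6, a remodelling ATPase, had c.700-1G>T (quality 20).

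Among the writers, the other protein-altering calls were C4232F of Kmt2c, and S214R of Setd1b and E943G of Setd1a, both enzymes of the Set1 complexes, in animal 54. Setd5 had P188S in animal 136. Among the erasers, 6 of the 12 Kdm genes had one, against 20.6% of all genes. Besides Kdm8, these were Y113F of Kdm4c and H177N of Kdm3a in animal 54, and V145F of Kdm4a, T362K of Kdm5a and G1109D of Kdm5c in animal 136. Kdm8 and Kdm4a had no site in an all-variant list, so these Strelka calls alone made them members and raise the Kdm count. Kdm3a and the Kdm4 enzymes remove methyl groups from H3K9, and the Kdm5 enzymes from H3K4. The class IIa deacetylases had R455Q of Hdac4 in animal 54, D895Y of Hdac5 in animal 108 and Q207H of Hdac9 in animal 136. These 3 calls had qualities of 18, 17 and 21, in the lower part of the range.

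Among readers and remodellers, Brd8, of the Tip60 acetyltransferase complex, had A942S in animal 108 (quality 36), and Brdt, the testis BET protein, had Q258K in animal 136. Chd3 had P644L in animal 54, with the highest quality of the protein-altering calls, 51. Chd2 had P1748S and Chd9 had A2774S in animal 136. Arid1a had D1026G and Q544H, and Arid2, the DNA-binding subunit of the PBAF form of SWI/SNF, had A524S and L1447I, each pair in animal 136. Arid4b, a paralog of Arid4a, had G732D in animal 54. The other chromatin genes had a protein-altering Strelka call in 13 of 41 (31.7%), against 20.6% of all genes. Among the 13 were the remodeller gene Atrx and the acetyltransferase gene Kat7, each in animals 108 and 136.

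**Figure D4:**
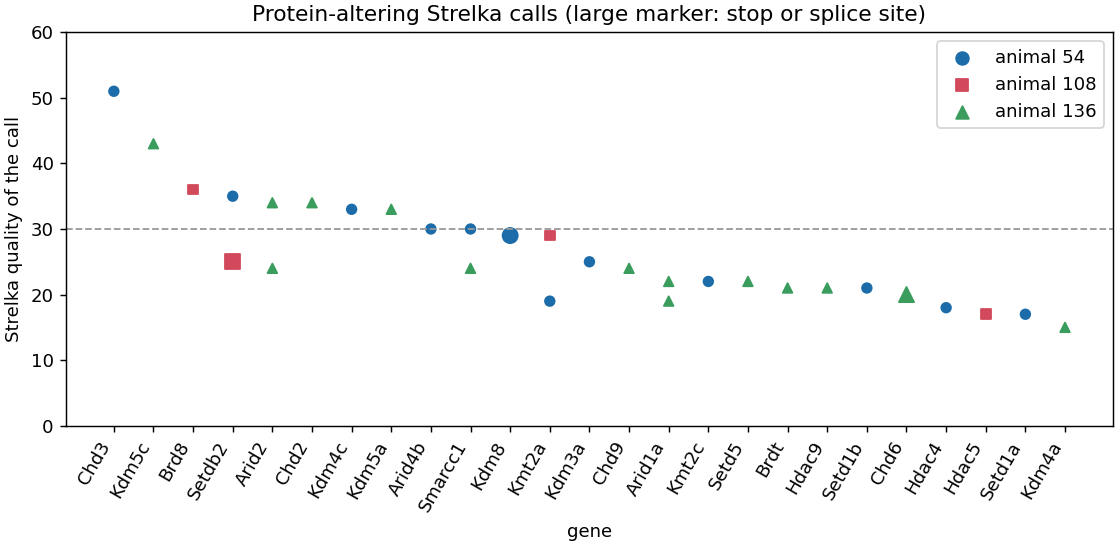
Each marker is a protein-altering Strelka call in a member gene, placed by its quality on the vertical axis, with animals by shape and colour and with large markers for stop and splice site calls. The 30 calls plotted leave out those not reported here, and 10 of them reach the dashed line at a quality of 30.

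Few of the Strelka calls had reads to show. Of the 54, 6 (11.1%) were also in the marrow list of the animal and 0 in the ear list, against 10.2% in the marrow lists over all genes. In animal 54 the variant had 4 of 30 reads (13.3%) at Kdm4c Y113F, 6 of 51 (11.8%) at Kdm3a H177N and 6 of 21 (28.6%) at the synonymous G2254G of Chd7, a remodelling ATPase. In animal 136 it had 6 of 36 reads (16.7%) at Setd5 P188S and 4 of 36 (11.1%) at a site in the 3′ UTR of Ncor1. Every one of these fractions was below the median of the shared sites in that marrow.

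At each of the 6 sites the variant reads were split equally over the strands, 2 and 2 or 3 and 3. Over all genes the split was exactly equal at 413 of the 446 Strelka calls found in a marrow list (92.6%). Of the other marrow-only single base sites with 10 or fewer variant reads, 517 of 5097 (10.1%) had an equal split over all genes and 3 of 64 (4.69%) in the members. The lists do not say which reads belong to 1 fragment, so the number of separate fragments behind a call is unknown.

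**Figure D5:**
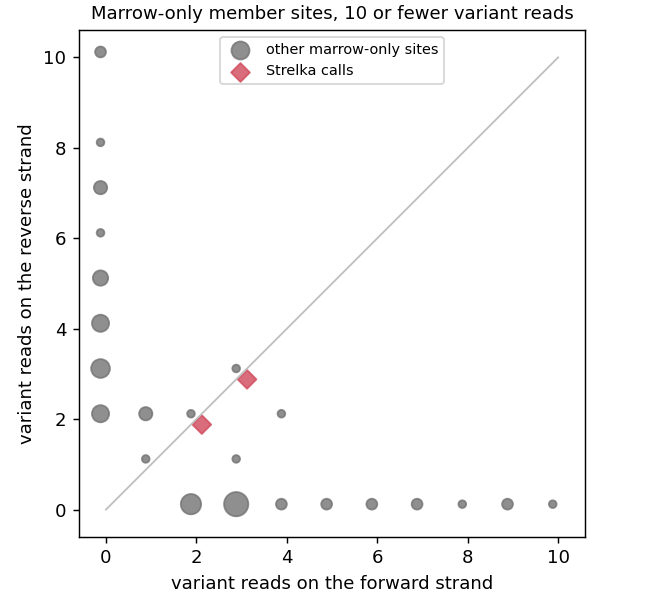
Member single base sites in the marrow list only, with 10 or fewer variant reads, are placed by variant reads on the forward strand (horizontal axis) and on the reverse strand (vertical axis), and marker area grows with the number of sites at a point. The 6 Strelka calls (red diamonds) lie on the line of equal counts, and the 64 other sites (grey circles) lie mostly on the axes.

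VarScan2, which reports reads in both tissues, called 4 exonic or UTR somatic sites in 4 members (5.88%, against 3.96% of all genes), all in animal 108. No member had a protein-altering VarScan2 call, against 0.516%, 0.525% and 0.21% of all genes in animals 54, 108 and 136 and 0.997% in any of them. Exonic calls of lost heterozygosity numbered 0 in the members and 71 over all 11429 genes, too few for the 0 to describe the members. Kmt2d, which methylates H3K4 at enhancers, had the synonymous P2349P at 39 of 193 reads (20.2%) in marrow and 11 of 171 (6.43%) in ear, with an authors' somatic p-value of 8.76e-05. Smarca1, an ISWI remodelling ATPase, had a 3′ UTR change at 8 of 25 reads (32.0%) in marrow and 0 of 12 in ear, which allows up to 26.5% there (95% exact interval). Setd1a P658P had 4 of 16 reads in marrow and 1 of 37 in ear of animal 108, and the same site was called in the ear list of animal 54, at 9 of 34 reads. Chd8 had an insertion in a noncoding exon at 5 of 9 reads in marrow and 1 of 12 in ear.

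All variant reads in marrow were on 1 strand at each of the 4 VarScan2 calls: 39 on the reverse strand in Kmt2d, and 8, 4 and 5 on the forward strand in Smarca1, Setd1a and Chd8. These sites were chosen by the caller for the difference between tissues, so that difference was not tested again. Strelka and VarScan2 had no call in common in the members, and 3 in common over all genes.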

How the data were processed

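Whole-exome lists of marrow and matched ear from 3 mice were used. Per the labels' protocols, capture covered 50 Mb at a stated mean depth of 100 reads. The submitters' processing notes name FastQC, Bowtie2, SAMtools and the builds GRCm38 and mm9. Per the file headers, the authors' all-variant lists carry SnpEff annotations and deposited read counts per allele and strand. The authors' VarScan2 lists give deposited read counts, the percent of variant reads and a p-value, and the authors' Strelka lists give a quality score. The lowest depth listed was 11. Filters of the callers were not given in the sources used here. The assigned VarScan2 marrow column was the closer one to the marrow list at 441 of 441, 979 of 979 and 263 of 263 sites of animals 54, 108 and 136, and the ear column at 256 of 277, 314 of 341 and 60 of 71.

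Each site was given, per gene, its annotation of highest class, then of the longest coding sequence, so residue numbers follow that transcript. Fractions are variant reads over reads of both alleles. Sites tested had at least 10 reads in each tissue. Fisher's and Cochran-Mantel-Haenszel tests (Python 3.11.15, scipy 1.17.1) were run over all sites, exonic or not, adjusted by Benjamini-Hochberg, and checked on simulated reads. The simulated reads held counting error only and a large shift at chosen sites. The check therefore covers neither extra spread in the real reads nor small shifts. Intervals are Clopper-Pearson, Newcombe or Poisson at 95%. They cover counting error alone, and the deposited counts do not tell whether PCR copies of a molecule are among the reads. Each tissue of an animal is 1 sample, so a test within an animal measures reads, not animals. Marrow and ear of the same number come from 1 animal, per the labels. Deviations of their fractions from the tissue means correlated at 0.153, 0.196 and 0.111 over 4444 sites.

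The members, the 69 symbols of the list of other chromatin genes and the rule for named genes were chosen with earlier results of these data known. The rule names members with a protein-altering somatic call, a HIGH impact call or a site past the threshold, and the 10 with most shared sites. Some calls in the members are counted but not reported here. Sequences printed are alleles of the deposited lists. All 68 members matched a RefSeq symbol or synonym.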

Additional observations from a re-analysis of the deposited data

How the results depend on the processing

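The 25 shared protein-altering member sites with at least 10 reads in both tissues ranged from 10 to 25 when 1 animal was left out: 15 without animal 54 and 10 without animal 108. At 20 reads there were 23, without indels 24, and at a mapping quality of at least 40, an alternative added after seeing the data, 21. Members with a protein-altering Strelka call numbered 27, and 11 at a quality of at least 30. They ranged from 16 to 25 with 1 animal left out, and were 16 without animal 54 and 16 without animal 136. The 4 VarScan2 calls became 1 at an authors' p under 0.01, 1 at 20 reads, and ranged from 0 (without animal 108) to 4. Fisher's test called 0 member sites under each alternative (9, 9 and 0 had an unadjusted p under 0.05 in animals 54, 108 and 136). In the stratified test the count was 0 with animal as replicate block and 0 without it, with 0 member sites tested, and it was 0 of 6 without animal 54 with or without the block or by an exact conditional test. The mean difference in fraction ranged from -2.92 to -1.39 points with 1 animal left out and was -0.718 at 20 reads. The log2 ratio of marrow-only to ear-only sites was -0.01 at 20 reads and ranged from -1.03 to 0.15, the last without animal 54. The alternative with a minimum variant quality was not run, because the lists used here hold no such column. In animal 136 only 8 member sites were shared, and 6 of these had the 10 reads that the test needed in both tissues.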
